A study of Homo sapiens with 8 samples.

Results

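The genes described here are H19, IGF2, the receptor IGF2R and the insulin-like growth factor (IGF) binding proteins IGFBP2 to IGFBP7, 9 of the 63677 gene IDs counted in RNA-seq of the human lung adenocarcinoma line PC9. They were matched by symbol to Ensembl gene IDs, and all 9 were found. They were chosen by their measured values: H19 and IGFBP5 were among the largest rises in the brain metastatic subline PC9-BrM3 over parental PC9 cells. Values of that comparison are therefore given for the 9 genes as a description, with no test. The knockdown comparison was not used for the choice and gives them a test.

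Total RNA was sequenced from 4 groups of 2 libraries. The shHSF1 and shNTC groups were PC9-BrM3 cells carrying a lentiviral, doxycycline-inducible hairpin (Tet-pLKO), directed against the transcription factor HSF1 (1 hairpin, clone 7480) or a non-target control. Both received puromycin for 5 days to select carriers, then doxycycline at 500 ng/mL for 48 h until harvest. The PC9-BrM3 and PC9 parental groups were not transduced, and sub-confluent monolayers were grown for 48 h before harvest. All groups share the PC9 background, and the labels do not say whether the 2 libraries of a group came from separate cultures, so the p-values measure the spread between these libraries, which may be technical.

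H19 is a long non-coding RNA transcribed from the maternal allele of an imprinted locus, where IGF2, the gene of a fetal growth factor, is normally transcribed from the paternal allele. A control region bound by CTCF on the maternal allele directs shared enhancers towards H19. IGF2 signals through the type 1 IGF receptor (IGF1R) and the insulin receptor, is taken to lysosomes by IGF2R, and is held outside the cell by the secreted binding proteins, which proteases such as PAPPA cut to free it. Both H19 and the binding proteins are expressed at varying levels in lung carcinomas, and HSF1 is the factor that drives the heat shock response.

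The libraries held 33550140 to 56715336 counts, so that 3 counts, the limit that a count of 0 allows, correspond to 0.0529 to 0.0894 CPM, counts scaled to the total of the library (counting error only). Levels below are CPM on totals scaled by TMM over the 8 libraries. The untransduced libraries came from lane 7 and the transduced ones from lane 1, per the file headers, and fold changes were fitted within a lane. HSF1 itself was at 15.7 and 13.3 CPM in the shHSF1 libraries, against 180.5 and 182.3 CPM in the shNTC libraries, and at 54.8 and 51.9 CPM in PC9-BrM3, against 47 and 50.4 CPM in PC9 parental libraries. The 2 PC9-BrM3 libraries stood apart from each other, with a chi-square per degree of freedom of 335, against 12 to 27.7 for the other pairs, so values are given for each library and with each of them left out. All 6 epithelial markers reached 1 CPM in a group. Their sum ran from 5932.7 to 6054.7 CPM in shHSF1, 4341.1 to 4629.6 CPM in shNTC, 3389.3 to 3700.6 CPM in PC9-BrM3 and 2853.2 to 3182.6 CPM in PC9 parental libraries. Of the 7 fibroblast markers only COL1A1 reached 1 CPM and LUM had no count. Their sum was 27.2 to 30.3 CPM in shHSF1, 12.9 to 13 CPM in shNTC, 5.37 to 9.03 CPM in PC9-BrM3 and 4.98 to 5.02 CPM in PC9 parental libraries. Of the 5 lung lineage markers only SFTPB reached that level, with SFTPC and SCGB3A2 at 0. Their sum was 0.545 to 0.773 CPM in shHSF1, 0.794 to 1.95 CPM in shNTC, 2.3 to 2.87 CPM in PC9-BrM3 and 12.4 to 16.2 CPM in PC9 parental libraries. Of the 6 astrocyte and neural markers SLC1A2 and ALDH1L1 reached 1 CPM, while AQP4, RBFOX3 and SNAP25 had at most 1 count in a library. That sum was 16.6 to 19 CPM in shHSF1, 15.9 to 18.3 CPM in shNTC, 24.2 to 34.8 CPM in PC9-BrM3 and 9.59 to 11.2 CPM in PC9 parental libraries. Of the 4 leukocyte markers only ITGAM reached 1 CPM, and PTPRC and CD3E had at most 3 counts. Their sum was 4.17 to 5.61 CPM in shHSF1, 2.3 to 2.57 CPM in shNTC, 2.1 to 2.22 CPM in PC9-BrM3 and 0.514 to 0.656 CPM in PC9 parental libraries. Of the 5 endothelial markers only CDH5 reached 1 CPM, KDR and TEK had at most 4 counts, and PECAM1 is placed on a patch sequence in the files, so its count of 0 is not read as a level. That sum was 19.3 to 25.3 CPM in shHSF1, 37.8 to 45.2 CPM in shNTC, 25 to 33.1 CPM in PC9-BrM3 and 52.7 to 56.1 CPM in PC9 parental libraries. The epithelial and fibroblast sums differed within both lanes without overlap, and so did those of the lung lineage, leukocyte and endothelial lists; the neural sum overlapped between the transduced groups only. In bulk RNA fewer cells of a type and less RNA per cell cannot be told apart, and the part of these markers in the results below was not tested.

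H19 (ENSG00000130600) lies on the minus strand at chr11:2016406-2022700 (GRCh37), and no other gene ID of the files lies within its span. The RNA is the host of the microRNA miR-675, whose hairpin is contained whole in 4 of 12 H19 transcripts of GENCODE v29 and spans bases 984 to 1056 of H19-202. Reads over those bases were counted to H19, and mature miRNAs were not measured here. The hairpin (RefSeq, GRCh38.p14, chr11:1996759-1996831, minus strand) is shown because it is the functional sequence carried inside the RNA whose level varied most, and the mature forms, in the order of their names, lie at chr11:1996800-1996822 and chr11:1996768-1996787, with the seed (bases 2 to 8) in capitals.
miR-675 hairpin: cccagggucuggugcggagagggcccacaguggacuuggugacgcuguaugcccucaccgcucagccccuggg
hsa-miR-675-5p: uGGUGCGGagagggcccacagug
hsa-miR-675-3p: cUGUAUGCccucaccgcuca
The 5p seed GGUGCGG was shared with 1 other mature miRNA, hsa-miR-4466, among 2545 in the RefSeq table, and the 3p seed UGUAUGC with 0.

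H19 was at 747.1 and 654.1 CPM in the shHSF1 libraries, against 926.7 and 791.8 CPM in the shNTC libraries. In the untransduced cells it was at 1306.3 and 2830.3 CPM in PC9-BrM3, against 9.08 and 12.6 CPM in PC9 parental libraries. Every library derived from PC9-BrM3 thus lay far above both parental ones, and neither pair of groups overlapped. The counts behind these levels ran from 23708 to 95608 in the 6 libraries derived from PC9-BrM3, against 512 and 654 in the parental libraries. H19 alone took 0.0784% and 0.0707% of all counts in shHSF1, 0.0935% and 0.0808% in shNTC, 0.133% and 0.241% in PC9-BrM3, against 0.000903% and 0.00125% in PC9 parental libraries. The fitted difference of PC9-BrM3 over PC9 parental was 7.60 ± 0.51 on the log2 scale (SE), 194.7-fold, and stayed between 6.91 and 8.07 under 10 other settings, each PC9-BrM3 library left out included. In shHSF1 over shNTC it was -0.27 ± 0.08 (edgeR quasi-likelihood test, adjusted p = 0.0225), a fall that rested on single libraries: without shHSF1 replicate 2 it was -0.19 (adjusted p = 0.132) and without shNTC replicate 1 it was -0.16 (adjusted p = 0.168). The call was also lost with upper-quartile scaling (-0.20, adjusted p = 0.0635) and with all 8 libraries in 1 fit (-0.29, adjusted p = 0.589); over all alternatives the adjusted p ran from 0.000653 to 0.589.

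IGF2 (ENSG00000167244), the imprinted growth factor 148.1 kb from the start of H19, was low in every group. Its counts were 15 and 12 in shHSF1, against 26 and 32 in shNTC, and 25 and 56 in PC9-BrM3, against 28 and 17 in PC9 parental libraries. That is 0.390 and 0.331 CPM in shHSF1, against 0.543 and 0.865 CPM in shNTC, and 0.471 and 1.66 CPM in PC9-BrM3, against 0.497 and 0.328 CPM in PC9 parental libraries. The PC9-BrM3 and parental libraries overlapped, since PC9-BrM3 replicate 1 lay below a parental library. The fitted difference of PC9-BrM3 over PC9 parental, 1.34 ± 0.66 on the log2 scale, came to 0.18 without PC9-BrM3 replicate 2 and to 2.03 without replicate 1. In shHSF1 over shNTC it was -0.90 ± 0.39, with no overlap of the libraries, and did not pass the test (edgeR quasi-likelihood adjusted p = 0.0853). The level of IGF2 may be understated, because 26.3% of its exon bases are shared on the same strand with the readthrough gene INS-IGF2 and ENSG00000240801, where reads assigned to more than 1 gene can be dropped. INS-IGF2 and the insulin gene INS had 0 counts in all 8 libraries, and the antisense IGF2-AS had at most 3. IGF1, the other IGF ligand, also had 0 counts in all 8, which allows up to 0.0529 to 0.0894 CPM per library.

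IGF2R (ENSG00000197081), the receptor that clears IGF2, was the steadiest of the genes. It was at 367.7 and 345.8 CPM in shHSF1, against 344.7 and 359.5 CPM in shNTC libraries. Its levels were 388.2 and 366.4 CPM in PC9-BrM3, against 415.5 and 397.3 CPM in PC9 parental libraries. The knockdown difference was 0.05 ± 0.06 on the log2 scale (edgeR quasi-likelihood adjusted p = 0.531), with overlapping libraries, and the subline difference was -0.08 ± 0.14, with both PC9-BrM3 libraries below both parental ones.

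Of the 9 genes, 8 passed the filter on low counts in the knockdown comparison, and IGFBP7 did not, with 0 counts in all 8 libraries. Of the 8 tested genes, 1 rose in shHSF1 over shNTC (IGFBP4) and 3 fell (H19, IGFBP2 and IGFBP5; edgeR quasi-likelihood adjusted p under 0.05). The other 4 did not pass. The background was high: 45.7% of the 16840 genes tested were called, 22.2% higher and 23.5% lower, so about as large a share of the members as of all genes was called. With upper-quartile scaling the split was 2 higher and 2 lower, since H19 dropped out and IGFBP6 came in at 0.20 (adjusted p = 0.0281). The plot of levels by library shows these values for 8 genes.

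**Figure D1:**
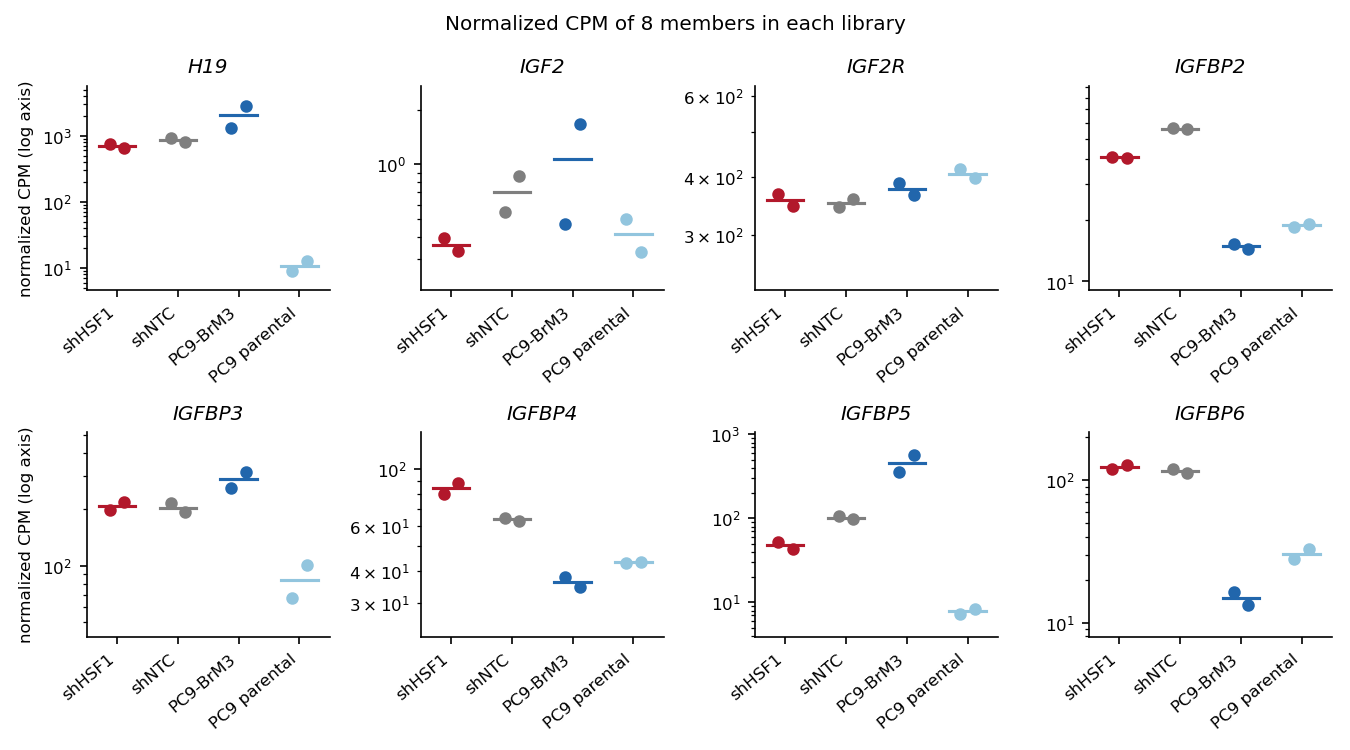
Normalized CPM (log axis, a separate range for each gene) of H19, IGF2, IGF2R and IGFBP2 to IGFBP6 in each of the 8 libraries, with points for libraries and bars for the mean of 2. H19 and IGFBP5 are lowest in the PC9 parental libraries, at 9.08 and 12.6 CPM and at 7.22 and 8.42 CPM, while IGFBP6 is lowest in PC9-BrM3, at 16.5 and 13.3 CPM.

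IGFBP5 (ENSG00000115461; chr2:217536828-217560248, GRCh37, minus strand), a secreted protein that binds IGFs and extracellular matrix, had the largest called difference of the members in the knockdown and the second largest between the lines. It was at 53 and 42.8 CPM in shHSF1, against 105.9 and 99 CPM in shNTC libraries. In PC9-BrM3 it was at 354.6 and 565.2 CPM, against 7.22 and 8.42 CPM in PC9 parental libraries. The groups of neither pair overlapped, and the parental libraries were the lowest of all. IGFBP5 fell in shHSF1 over shNTC by 1.07 ± 0.09 on the log2 scale, 2.1-fold lower (edgeR quasi-likelihood adjusted p = 1.13e-05), and the call held under all 10 alternatives, from -1.21 to -0.94. In PC9-BrM3 over PC9 parental the difference was 5.91 ± 0.31, 60-fold, from 5.50 to 6.21 under the alternatives.

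IGFBP2 (ENSG00000115457), an IGF carrier whose gene neighbours IGFBP5 on the opposite strand with 62.7 kb between the starts, also fell with the HSF1 hairpin. It was at 40.8 and 40.6 CPM in shHSF1, against 56.8 and 55.8 CPM in shNTC, and at 15.2 and 14.5 CPM in PC9-BrM3, against 18.6 and 19.1 CPM in PC9 parental libraries. The libraries of a group lay close together, and no groups within a lane overlapped. The knockdown difference was -0.44 ± 0.07 on the log2 scale (edgeR quasi-likelihood adjusted p = 0.000566; -0.46 to -0.37 under the 10 alternatives, all passing). The subline difference was -0.32 ± 0.16, so the neighbours IGFBP2 and IGFBP5 differed in the same direction in the knockdown and in opposite directions between the lines.

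IGFBP4 (ENSG00000141753), the binding protein that PAPPA cuts best when IGF is bound, was the member that rose. It was at 80.2 and 88.5 CPM in shHSF1, against 64.7 and 62.5 CPM in shNTC, and at 38 and 34.7 CPM in PC9-BrM3, against 42.9 and 43.5 CPM in PC9 parental libraries. Within each lane, both shHSF1 libraries lay above both shNTC ones, and both PC9-BrM3 libraries below both parental ones. The rise in shHSF1 over shNTC was 0.44 ± 0.07 on the log2 scale (edgeR quasi-likelihood adjusted p = 0.00103; 0.35 to 0.52 under the 10 alternatives, all passing), and the subline difference was -0.23 ± 0.14.

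IGFBP3 (ENSG00000146674), the main IGF carrier of the circulation, differed between the lines and hardly in the knockdown. It was at 199.6 and 218.7 CPM in shHSF1, against 215.2 and 193.7 CPM in shNTC libraries, which overlapped. In PC9-BrM3 it was at 260.4 and 318.0 CPM, against 67.3 and 101.0 CPM in PC9 parental libraries, which did not. The subline difference was 1.81 ± 0.24 on the log2 scale, 3.5-fold (1.53 to 2.11 under the alternatives). The knockdown difference was 0.06 ± 0.07 (edgeR quasi-likelihood adjusted p = 0.51), and its sign turned without shHSF1 replicate 2 (-0.02) and without shNTC replicate 2 (-0.0044).

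IGFBP6 (ENSG00000167779), which binds IGF2 with a marked preference over IGF1, ran the other way between the lines. It was at 16.5 and 13.3 CPM in PC9-BrM3, against 27.9 and 32.9 CPM in PC9 parental libraries, with no overlap and a difference of -1.0 ± 0.19 on the log2 scale (-1.16 to -0.88 under the alternatives). In shHSF1 it was at 119.9 and 128.3 CPM, against 120.1 and 111.8 CPM in shNTC libraries, which overlapped. That difference was 0.13 ± 0.07 (edgeR quasi-likelihood adjusted p = 0.152). The transduced libraries, at 111.8 to 128.3 CPM, all lay above the untransduced ones, at 13.3 to 32.9 CPM. Lane, transduction and treatment all differ between these and cannot be told apart. The plot of fold changes sets both comparisons side by side.

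**Figure D2:**
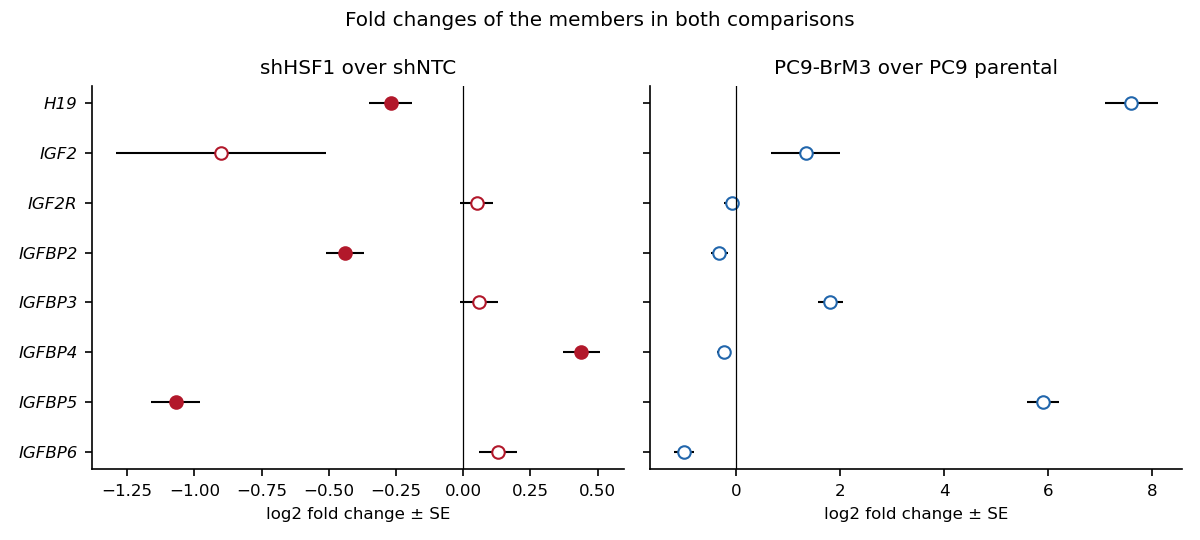
Log2 fold change with its standard error (horizontal axis, a separate range for each panel) of 8 members in shHSF1 over shNTC (left) and PC9-BrM3 over PC9 parental (right), 2 libraries a group; filled points passed the edgeR quasi-likelihood test, which was applied to the left panel only. H19 and IGFBP5 lie at 7.60 and 5.91 in the right panel and at -0.27 and -1.07 in the left.

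Promoter sequence is shown for the 3 members whose knockdown calls held under all alternatives, since HSF1 is a DNA-binding factor that recognises repeats of GAA in alternating orientation. The sequences are the 250 bases before the RefSeq start (GRCh38.p14), 5′ to 3′ on the gene's strand. IGFBP5 is at chr2:216695550-216695799 (minus), IGFBP2, by the start with 2 GENCODE transcripts, at chr2:216633170-216633419 (plus) and IGFBP4 at chr17:40443200-40443449 (plus), with any match to the motifs searched in capitals.
IGFBP5: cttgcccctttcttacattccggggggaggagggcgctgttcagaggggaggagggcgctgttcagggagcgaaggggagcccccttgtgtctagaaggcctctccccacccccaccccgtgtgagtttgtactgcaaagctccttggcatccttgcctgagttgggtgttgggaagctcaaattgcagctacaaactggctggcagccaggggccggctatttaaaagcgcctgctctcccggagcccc
IGFBP2: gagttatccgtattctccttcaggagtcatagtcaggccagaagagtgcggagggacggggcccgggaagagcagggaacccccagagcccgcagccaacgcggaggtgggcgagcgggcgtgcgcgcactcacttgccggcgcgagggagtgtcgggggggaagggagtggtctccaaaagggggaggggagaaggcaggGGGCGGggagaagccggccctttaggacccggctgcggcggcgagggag
IGFBP4: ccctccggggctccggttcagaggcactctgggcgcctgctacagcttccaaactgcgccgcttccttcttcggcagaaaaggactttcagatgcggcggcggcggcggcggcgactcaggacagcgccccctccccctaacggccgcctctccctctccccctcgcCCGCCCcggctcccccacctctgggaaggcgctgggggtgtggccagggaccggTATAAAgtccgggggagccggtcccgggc
The motifs searched, on both strands, were the heat shock pairs GAANNTTC and TTCNNGAA, the TATA box TATAAA and the GC box GGGCGG, whose reverse complement reads CCGCCC. The IGFBP5 window held none of these, the IGFBP2 window held 1 GC box, 49 bases before the start, and the IGFBP4 window held 1 TATA box at 29 bases and 1 GC box at 83 bases before the start. Neither heat shock pair was in any of the 9 windows of the 7 members with an entry. Over all 35116 windows of the same length, GAANNTTC was in 5.78%, TTCNNGAA in 6.62%, TATAAA in 10.7% and GGGCGG in 42.6%, and the GC content of the 3 windows was 61.2%, 69.2% and 71.6% in the order shown, against a median of 58% over all windows.

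Per exon length (RPKM, CPM divided by the kilobases of exon), which allows levels of different genes to be compared, the order of the genes differed between groups. Transduced and untransduced groups were in different lanes, so differences in order between them cannot be told apart from lane. In shHSF1 libraries H19 led at 249.1 ± 23.4 RPKM, followed by IGFBP6 at 97 ± 4.62, IGFBP3 at 46.8 ± 3.03, IGFBP4 at 38.1 ± 2.66, IGF2R at 35.8 ± 1.55, IGFBP2 at 8.54 ± 0.0242, IGFBP5 at 7.44 ± 1.12 and IGF2 at 0.0516 ± 0.00593 RPKM (SD, n = 2 here and in the next groups). In shNTC libraries H19 led at 305.6 ± 33.9 RPKM, followed by IGFBP6 at 90.6 ± 4.61, IGFBP3 at 45.8 ± 3.4, IGF2R at 35.4 ± 1.05, IGFBP4 at 28.8 ± 0.71, IGFBP5 at 15.9 ± 0.755, IGFBP2 at 11.8 ± 0.155 and IGF2 at 0.101 ± 0.0326 RPKM. IGFBP4 and IGF2R, and IGFBP2 and IGFBP5, had overlapping means ± SD in shHSF1 libraries, while each neighbour in the shNTC order was separated by more than the SDs. In PC9-BrM3 libraries H19 was at 735.5 ± 383.2 RPKM, followed by IGFBP5 at 71.4 ± 23.1, IGFBP3 at 64.8 ± 9.12, IGF2R at 37.9 ± 1.55, IGFBP4 at 16.4 ± 1.04, IGFBP6 at 11.6 ± 1.77, IGFBP2 at 3.12 ± 0.11 and IGF2 at 0.153 ± 0.12 RPKM. In PC9 parental libraries IGF2R led at 40.8 ± 1.29 RPKM, followed by IGFBP6 at 23.7 ± 2.74, IGFBP4 at 19.6 ± 0.19, IGFBP3 at 18.8 ± 5.32, IGFBP2 at 3.96 ± 0.0725, H19 at 3.86 ± 0.891, IGFBP5 at 1.21 ± 0.132 and IGF2 at 0.0591 ± 0.0171 RPKM. IGFBP5 and IGFBP3 did not differ beyond their SDs in PC9-BrM3. In the parental line the same held for IGFBP4 and IGFBP3, for IGFBP6 and IGFBP3, and for IGFBP2 and H19. Among all gene IDs, the mean RPKM of H19 ranked 76 in shHSF1, 58 in shNTC, 26 in PC9-BrM3 and 8095 in PC9 parental libraries.

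The binding proteins together, summed per length over IGFBP2 to IGFBP7, were at 191.5 and 204.4 RPKM in shHSF1, against 199.7 and 186.1 RPKM in shNTC, and at 146.6 and 188.1 RPKM in PC9-BrM3, against 61.3 and 73.3 RPKM in PC9 parental libraries. The sums overlapped between the transduced groups and not between the untransduced ones. IGFBP5 made up 4.3% and 3.25% of the sum in shHSF1, against 8.23% and 8.26% in shNTC, and 37.5% and 46.7% in PC9-BrM3, against 1.83% and 1.78% in PC9 parental libraries. IGFBP6 made up 49% and 49.1% in shHSF1, against 47% and 47% in shNTC, and 8.78% and 5.51% in PC9-BrM3, against 35.6% and 35% in PC9 parental libraries. IGFBP4 gave 18.9% and 19.6% in shHSF1, against 14.7% and 15.2% in shNTC, and 11.7% and 8.35% in PC9-BrM3, against 31.7% and 26.9% in PC9 parental libraries. IGFBP5 was thus the leading binding protein by its share in 1 of the PC9-BrM3 libraries and close behind IGFBP3, at 39.8%, in the other. IGFBP6 led in all 4 transduced libraries and in both PC9 parental ones, where IGFBP3 gave 24.6% and 30.8%. Differences in make-up between transduced and untransduced libraries cannot be told apart from lane. Over genes within 2 percentage points of its GC content, the median of shNTC minus PC9-BrM3 was 1.52 for IGFBP6. It was -0.06 for IGFBP3 and 0.05 for IGFBP5, as differences of mean log2(CPM + 1).

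**Figure D3:**
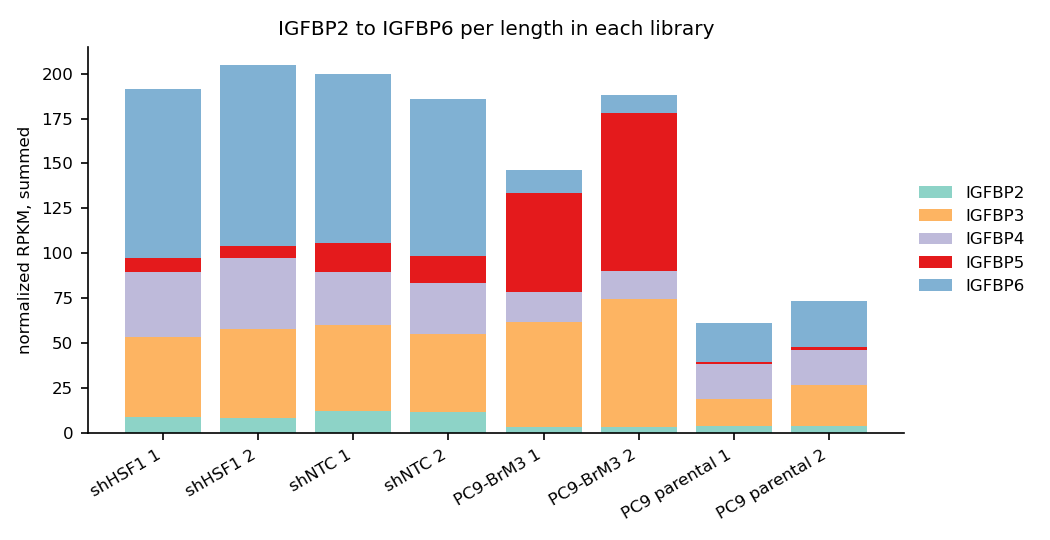
Stacked bars of the normalized RPKM of IGFBP2 to IGFBP6 in each of the 8 libraries (vertical axis from 0; IGFBP7 is at 0 throughout). The IGFBP5 segment is 37.5% and 46.7% of the bar in PC9-BrM3, against 1.83% and 1.78% in PC9 parental libraries, and the IGFBP6 segment is 47% to 49.1% of the bar in the transduced libraries.

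The shNTC cells, which carry a control hairpin in PC9-BrM3, can be set beside untransduced PC9-BrM3 cells, but lane, transduction, puromycin and doxycycline cannot be told apart there and no test was made. As the difference of group means of log2(CPM + 1), shNTC minus PC9-BrM3 was -1.17 for H19, -2.12 for IGFBP5, 2.89 for IGFBP6, 1.85 for IGFBP2 and 0.79 for IGFBP4. The values of IGFBP3 (-0.49), IGF2 (-0.22) and IGF2R (-0.10) were smaller in size. The added 1 shrinks differences at low levels, as for IGF2, with a mean of 0.704 CPM in shNTC and 1.06 CPM in PC9-BrM3. Genes of like GC content (within 2 percentage points by GENCODE v29 transcript) differed between these libraries too. Their median, with the 5th and 95th percentiles, was 1.40 (0.04 to 2.90) for H19, 0.05 (-0.70 to 1.00) for IGFBP5, 1.52 (0.23 to 3.02) for IGFBP6, 0.45 (-0.55 to 1.51) for IGFBP2 and 1.23 (-0.09 to 2.66) for IGFBP4, so the values of IGFBP6 and IGFBP4 lay within those of genes of like GC content. shNTC minus PC9 parental was 6.19 for H19 and 3.56 for IGFBP5, where the median of genes of like GC content was 1.53 and 0.01.

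Fitted differences of the tested genes around H19 between the lines ran up to 3.48 on the log2 scale. Within 500 kb of its span there were 56 gene IDs, of which 18 were tested in either comparison, H19 and IGF2 included. Of the 14 neighbours tested in PC9-BrM3 over PC9 parental, without H19 and IGF2, 2 were higher and 0 lower by edgeR's quasi-likelihood test, where 7.14% of 17372 genes were called, 3.87% higher and 3.27% lower. At an unadjusted p under 0.05 the counts were 3 higher and 1 lower. The 2 called by edgeR were DUSP8, a MAP kinase phosphatase, and C11orf21. DUSP8 was at 0.622 and 1.48 CPM in PC9-BrM3, against 0.124 and 0.116 CPM in PC9 parental libraries (3.10 ± 0.60, edgeR adjusted p = 0.0396). C11orf21 was at 0.358 and 0.296 CPM in PC9-BrM3, against 0.0177 and 0.0386 CPM in PC9 parental libraries (3.48 ± 0.62, edgeR adjusted p = 0.0319). DESeq2 called 1 higher and 0 lower, with an adjusted p of 0.00202 for DUSP8 and 0.0608 for C11orf21. Both were named after their values were seen. Neither call was kept without PC9 parental replicate 1 (3.15, adjusted p = 0.118 for DUSP8 and 3.02, adjusted p = 0.329 for C11orf21, edgeR) or without replicate 2 (3.05, adjusted p = 0.0984 and 4.03, adjusted p = 0.18), though the differences were of like size, and 0 neighbours were called in either direction there. Without PC9-BrM3 replicate 1 the difference was 3.63 for DUSP8, and without replicate 2 it was 2.35 for DUSP8 and 3.58 for C11orf21. MRPL23, a mitochondrial ribosomal protein gene whose start is 54.2 kb from that of H19, was at 10.3 and 5.18 CPM in PC9-BrM3, against 11.2 and 12.5 CPM in PC9 parental libraries (-0.58 ± 0.34, edgeR adjusted p = 0.331; -1.16 and adjusted p = 1.25e-05 without PC9-BrM3 replicate 1). In shHSF1 over shNTC, 5 of 13 neighbours without IGF2 were higher (MOB2, DUSP8, IFITM10, CD81 and TSSC4), where 22.2% of all genes were, and 1 was lower, the lysosomal protease CTSD (-0.24 ± 0.06, edgeR adjusted p = 0.0116), whose call was lost without shHSF1 replicate 1 (-0.17, adjusted p = 0.11). MOB2 was lost without shHSF1 replicate 2 (0.45, adjusted p = 0.0555), and IFITM10 without shHSF1 replicate 1 (1.27, adjusted p = 0.226), shNTC replicate 1 (2.01, adjusted p = 0.0689) or shNTC replicate 2 (1.41, adjusted p = 0.132). With all 8 libraries in 1 fit DUSP8 alone was called, so that of 14 neighbours, IGF2 included, 1 was higher and 0 lower by edgeR. At an unadjusted p under 0.05, 3 were higher and 0 lower. Of all 18122 genes tested in that fit, 1639 were called higher and 2234 lower.

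**Figure D4:**
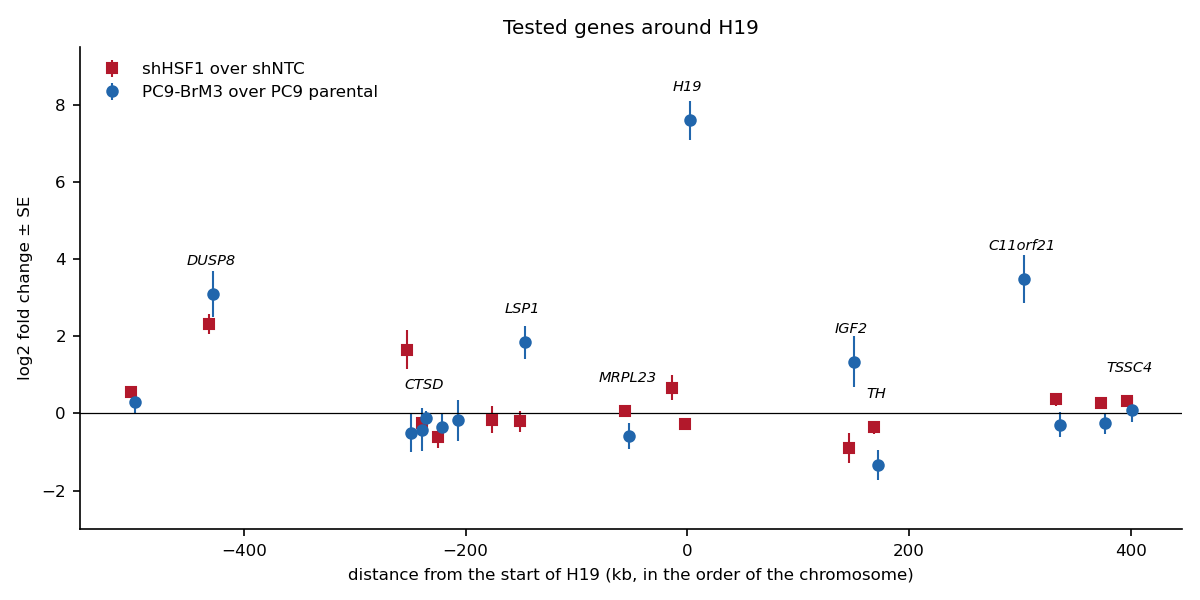
Log2 fold change with its standard error (vertical axis) of each tested gene within 500 kb of H19 against the distance of its start from that of H19 in kb, for shHSF1 over shNTC (squares) and PC9-BrM3 over PC9 parental (circles). H19 stands at 7.60 among the circles, above C11orf21 at 3.48 and DUSP8 at 3.10, both of them below 2 CPM in every untransduced library.

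Within 200 kb of the span of IGFBP5 there were 20 gene IDs. Of the 3 neighbours tested between the lines, without IGFBP2, 0 were called in either direction by edgeR's quasi-likelihood test and by DESeq2. By edgeR 7.14% of all genes tested were called there. At an unadjusted p under 0.05, 0 of the 3 were higher and 1 was lower. Their differences on the log2 scale were -0.34 ± 0.17 for SMARCAL1, 0.30 ± 0.45 for RPL37A-DT and -0.86 ± 0.34 for RPL37A. That of SMARCAL1 was -0.45 without PC9-BrM3 replicate 1 and -0.25 without replicate 2. In the knockdown 2 of 4 fell, counting IGFBP2 among them, where 23.5% of all genes tested were lower. They were IGFBP2 and SMARCAL1, an annealing helicase gene (-0.51 ± 0.08, edgeR quasi-likelihood adjusted p = 0.000574).

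The genes whose levels over the 8 libraries were most like those of H19, by Pearson's r of log2(CPM + 1) among 1266 genes, were CC2D2A (0.997), EVA1C (0.981), FGFR3 (0.975), ERICH5 (0.975) and RTL8B (0.965). These r values are a description, since the libraries of a group share their source and the groups share a lane. CC2D2A averaged 9.03 CPM in shHSF1, 9.73 in shNTC, 11.5 in PC9-BrM3 and 1.69 in PC9 parental libraries. The receptor gene FGFR3 averaged 8.09 CPM in shHSF1, 9.46 in shNTC, 13.7 in PC9-BrM3 and 0.594 in PC9 parental libraries. For IGFBP5 they were ATP6V0A4 (0.996), TMPRSS2 (0.989), PLAAT3 (0.985), TNFSF15 (0.983) and ARRB1 (0.979). TMPRSS2, a membrane serine protease gene, averaged 8.06 CPM in shHSF1, 14.9 in shNTC, 36 in PC9-BrM3 and 3.26 in PC9 parental libraries. H19 and IGFBP5 themselves had an r of 0.917, place 26 in the list for H19 and 25 in that for IGFBP5. Both were chosen by their rise in PC9-BrM3 over PC9 parental, and those libraries enter the r. A high r between them thus follows in part from the choice.

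The other genes of the IGF axis and of imprinting control, 60 in 9 lists, were set beside the members in the knockdown. Of 44 that passed the filter on low counts, 20 rose and 11 fell in shHSF1 over shNTC (edgeR quasi-likelihood adjusted p under 0.05), with a median log2 difference of 0.17, against 0.01 over all genes tested. With all 8 libraries in 1 fit, 12 were higher and 4 lower, beside 1639 higher and 2234 lower of all 18122 genes tested. In the main fit 70.5% of the list genes were called, 45.5% higher and 25% lower, beside 45.7%, 22.2% and 23.5% of all genes tested. The difference between the lists and all genes was not tested. The counts of single lists below stand beside the same shares of all genes, and no single list was tested against them.

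Both signalling receptors tested rose. IGF1R, the receptor that transmits the IGF signal, was at 132.9 and 124.0 CPM in shHSF1, against 80.5 and 85.8 CPM in shNTC libraries (0.66 ± 0.07 on the log2 scale, edgeR quasi-likelihood adjusted p = 3.3e-05). INSR, the insulin receptor gene, was at 54.1 and 50 CPM in shHSF1, against 33.3 and 35.1 CPM in shNTC libraries (0.63 ± 0.08, adjusted p = 0.000102). Neither pair of groups overlapped. Of the 7 substrates and adaptors tested, 2 rose and 2 fell. GRB10, an imprinted adaptor that dampens receptor signalling, was at 60.6 and 59 CPM in shHSF1, against 123.2 and 133.5 CPM in shNTC libraries (-1.07 ± 0.07, adjusted p = 1.94e-06). The adaptor SHC1 was at 101.3 and 97.9 CPM in shHSF1, against 162.4 and 150.6 CPM in shNTC libraries (-0.62 ± 0.06, adjusted p = 3.02e-05). Both fell well beyond the spread of their libraries, while IRS1, the first substrate of both receptors, rose by less: 208.4 and 213.2 CPM in shHSF1, against 173.3 and 194.8 CPM in shNTC libraries (0.23 ± 0.07, edgeR adjusted p = 0.0248). The IRS1 call was lost without shHSF1 replicate 2 (0.19, adjusted p = 0.111) and without shNTC replicate 1 (0.13, adjusted p = 0.195). With all 8 libraries in 1 fit its adjusted p was 0.378. IRS2 did not pass (0.03 ± 0.07, adjusted p = 0.784).

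IGFBP1, the binding protein known as a target of insulin and FOXO signalling in liver, was the only other binding protein tested, and it rose. It was at 4.6 and 4.17 CPM in shHSF1, against 1.69 and 1.57 CPM in shNTC libraries (1.45 ± 0.18 on the log2 scale, edgeR quasi-likelihood adjusted p = 0.000128). Of the 5 proteases and protease inhibitors tested, 3 rose (PAPPA, ADAM9 and ADAM12) and 1 fell (STC1). The ADAM12 call was lost without shHSF1 replicate 2 (0.26, adjusted p = 0.0762) and without shNTC replicate 1 (0.28, adjusted p = 0.0808). PAPPA, which cuts IGFBP4 and IGFBP5, was at 19.8 and 20.5 CPM in shHSF1, against 12.7 and 15 CPM in shNTC libraries (0.57 ± 0.11, adjusted p = 0.0025). STC1, a stanniocalcin that inhibits PAPPA, was at 4.42 and 4.91 CPM in shHSF1, against 8.71 and 10 CPM in shNTC libraries (-0.97 ± 0.14, adjusted p = 0.000397). The calls of PAPPA (0.54, adjusted p = 0.0919), ADAM12 (0.28, adjusted p = 0.355) and STC1 (-1.0, adjusted p = 0.0868) were lost with all 8 libraries in 1 fit. The stanniocalcin STC2 did not pass at 0.09 ± 0.06 (edgeR adjusted p = 0.217), and passed with upper-quartile scaling (0.16, adjusted p = 0.0309).

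All 3 IGF2 mRNA binding proteins, RNA-binding factors of fetal tissues and tumours, rose. IGF2BP3 had the largest difference of them, with 295.3 and 268.6 CPM in shHSF1, against 157.8 and 174.9 CPM in shNTC libraries (0.79 ± 0.07 on the log2 scale, edgeR quasi-likelihood adjusted p = 1.5e-05). IGF2BP1 differed by 0.37 ± 0.07 (adjusted p = 0.00146) and IGF2BP2 by 0.34 ± 0.06 (adjusted p = 0.000731), whose call was lost with all 8 libraries in 1 fit (adjusted p = 0.539). Of 11 genes of IGF1R signalling tested, 5 rose and 4 fell (edgeR quasi-likelihood adjusted p under 0.05). FOXO1, FOXO3 and FOXO4, transcription factors kept out of the nucleus when the pathway is active, were all among the 4 that fell, with PIK3CA. All 4 calls were lost with all 8 libraries in 1 edgeR fit. The adjusted p was then 0.106 for FOXO1, 0.0541 for FOXO3, 0.0914 for FOXO4 and 0.197 for PIK3CA. With 1 library left out, FOXO3 passed each time, while FOXO1 was lost without shHSF1 replicate 2 (-0.25, adjusted p = 0.0882) and without shNTC replicate 1 (-0.29, adjusted p = 0.0817). FOXO4 was lost without shHSF1 replicate 2 (-0.33, adjusted p = 0.0831), shNTC replicate 1 (-0.37, adjusted p = 0.0581) or shNTC replicate 2 (-0.36, adjusted p = 0.0672). PIK3CA was lost without any of the 4, at -0.22 (adjusted p = 0.0738) and -0.17 (adjusted p = 0.131) without shHSF1 replicate 1 and 2, and at -0.22 (adjusted p = 0.0627) and -0.18 (adjusted p = 0.129) without shNTC replicate 1 and 2.

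Of the imprinted genes 5 of 10 were tested. MEST, expressed from the paternal allele, was at 40.1 and 39.4 CPM in shHSF1, against 109.8 and 101.9 CPM in shNTC libraries (-1.38 ± 0.07 on the log2 scale, edgeR quasi-likelihood adjusted p = 4.22e-07), clear of the spread between libraries. CDKN1C, a growth-restraining cell cycle inhibitor near H19 on chromosome 11, was called higher from 18 and 13 counts in shHSF1, against 9 and 4 in shNTC libraries (1.45 ± 0.48, edgeR adjusted p = 0.0327). That call was lost without any of the 4 libraries, at 1.27 (adjusted p = 0.212) and 1.62 (adjusted p = 0.0814) without shHSF1 replicate 1 and 2, and at 1.92 (adjusted p = 0.0759) and 1.16 (adjusted p = 0.191) without shNTC replicate 1 and 2. Of 10 regulators of imprints and of H19, 3 rose and 3 fell. DNMT3B, a de novo DNA methyltransferase, was at 53 and 46.9 CPM in shHSF1, against 11 and 10.8 CPM in shNTC libraries, 4.68-fold higher (2.23 ± 0.09, adjusted p = 1.46e-07). TET3, which oxidises methylated cytosine, was at 110.3 and 93.8 CPM in shHSF1, against 65 and 59.8 CPM in shNTC libraries (0.74 ± 0.08, adjusted p = 5.8e-05). ZFP57, a zinc finger protein that guards imprints, had 29 and 20 counts in shHSF1, against 0 and 0 in shNTC libraries, at least 8.95-fold higher with 3 counts per library as the floor, and was called. ZNF445, another zinc finger protein that guards imprints, fell, with 16.9 and 15.1 CPM in shHSF1, against 26.8 and 28.4 CPM in shNTC libraries (-0.75 ± 0.09, edgeR adjusted p = 0.000142). DNMT1, the maintenance DNA methyltransferase gene, was at 200.1 and 213.0 CPM in shHSF1, against 270.8 and 279.0 CPM in shNTC libraries (-0.38 ± 0.06, adjusted p = 0.000755; lost with all 8 libraries in 1 fit at an adjusted p of 0.232). TRIM28, the corepressor that such zinc finger proteins recruit, was at 232.2 and 247.1 CPM in shHSF1, against 283.0 and 281.7 CPM in shNTC libraries (-0.21 ± 0.06, adjusted p = 0.0189). The TRIM28 call was lost without shHSF1 replicate 1 (-0.14, adjusted p = 0.167), without shNTC replicate 2 (-0.20, adjusted p = 0.068), with upper-quartile scaling (-0.14, adjusted p = 0.0668) and when all 8 libraries were fitted together (-0.23, adjusted p = 0.273). The medians of the lists were the same with ZFP57 at that bound.

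**Figure D5:**
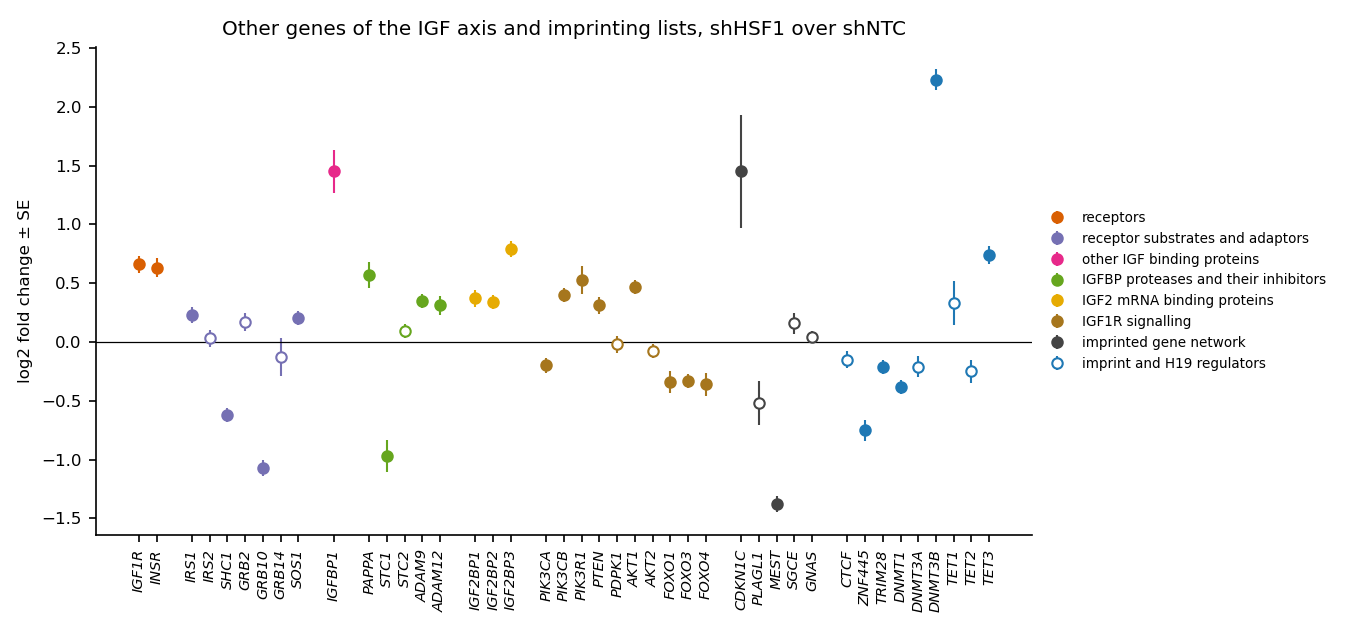
Log2 fold change of shHSF1 over shNTC with its standard error (vertical axis) for 42 of the other tested genes of the IGF axis and imprinting lists, coloured by list; filled points passed the edgeR quasi-likelihood test and open points did not. Of the 44 tested, 2 are not plotted, among them ZFP57, whose shNTC libraries are both at 0. DNMT3B stands highest at 2.23 and MEST lowest at -1.38.

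Between the lines the same lists held few calls. Of 42 tested in PC9-BrM3 over PC9 parental, 1 was higher (TET1) and 3 were lower (PAPPA, STC2 and PLAGL1), with a median log2 difference of -0.02, against 0.01 over all genes tested, where 7.14% were called. PAPPA was at 1.96 and 2.66 CPM in PC9-BrM3, against 12.8 and 9.67 CPM in PC9 parental libraries, 4.79-fold lower (-2.26 ± 0.28 on the log2 scale, edgeR quasi-likelihood adjusted p = 0.0135), and passed in all 10 alternatives. STC2, which inhibits PAPPA by binding it, was at 161.3 and 183.9 CPM in PC9-BrM3, against 310.2 and 408.4 CPM in PC9 parental libraries (-1.03 ± 0.19, adjusted p = 0.0333). Its call was lost without PC9 parental replicate 1 (-1.23, adjusted p = 0.0747) and without replicate 2 (-0.84, adjusted p = 0.323). PLAGL1, an imprinted zinc finger gene (-2.35 ± 0.31, adjusted p = 0.0151), and TET1, which oxidises methylated cytosine (1.61 ± 0.32, adjusted p = 0.0435), were below 5 CPM in every untransduced library and were named after their values were seen. TET1 was lost without PC9 parental replicate 1 (1.74, adjusted p = 0.195) and replicate 2 (1.47, adjusted p = 0.29), and PLAGL1 without PC9 parental replicate 2 (-2.25, adjusted p = 0.0637). The number of calls moved with the libraries in the fit: without PC9-BrM3 replicate 1 or 2 the lists held 21 and 20 calls, and without PC9 parental replicate 1 or 2 they held 2 and 1. Over all genes the calls moved likewise, with 1240 in all 4 libraries, 9228 and 5594 without PC9-BrM3 replicate 1 or 2, and 402 and 479 without PC9 parental replicate 1 or 2. IGF1R (-0.39 ± 0.15, adjusted p = 0.183) and INSR (0.52 ± 0.18, adjusted p = 0.158) did not pass with all 4 libraries and did with either PC9-BrM3 library left out: IGF1R at -0.29 (adjusted p = 0.0157) without replicate 1 and -0.50 (adjusted p = 0.000586) without replicate 2, and INSR at 0.33 (adjusted p = 0.0174) and 0.67 (adjusted p = 0.000113).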

How the data were processed

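Total RNA of 8 libraries was sequenced, and groups came from the sample titles. Raw counts of reads were deposited; the authors made them with featureCounts 1.6.1, in reverse-stranded mode, over the exons of Ensembl gene IDs (GRCh37), according to the file headers. The submitters' processing notes also name Trim Galore, HISAT2 and DESeq2, without saying what each did. Reads that fit more than 1 gene can be lost, which lowers genes that share exons. Symbols were found for 39699 of 63677 gene IDs (62.3%).

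The 4 libraries of a comparison were fitted alone with edgeR 4.0.16 under R 4.3.3. Low genes were removed by filterByExpr at a minimum count of 10 and a minimum total of 15, libraries were scaled by TMM, and genes were tested with the robust quasi-likelihood F test, with Benjamini-Hochberg adjustment over all genes tested and a threshold of 0.05. CPM and RPKM values use TMM factors over all 8 libraries. Alternatives were DESeq2 size factors, upper-quartile factors, no count filter, the DESeq2 1.42.0 Wald test, all 8 libraries in 1 fit, a replicate block and each library left out. The code was tested on simulated data. No contrast was tested across lanes.

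Sequences came from RefSeq tables (GRCh38.p14) and GENCODE v29, matched by name; positions of genes are those of the files. The members, lists and tests were chosen with earlier results of these data known. All 9 members are named. Of the other genes a fixed set of 12 is named and, in each comparison, up to 8 called list genes with the smallest p and at least 5 CPM in a group, and the genes most like H19 and IGFBP5 by the r given; 1 gene that the rule names is not reported here. Neighbours of H19 and IGFBP5, and ADAM, FOXO and PIK3CA genes, were named after their values were seen, as were ZFP57, ZNF445, DNMT1 and TRIM28. Totals limit precision as stated beside the values, and counting limits cover counting error only.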

Additional observations from a re-analysis of the deposited data

How the results depend on the processing

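Of 45 single-gene results under 10 alternatives each, 408 of 450 values kept their direction and, where tested, their side of the threshold. The 8 members compared between the lines had no test, so for them no call could be kept or lost. Of the other values, 18 lost a call, 13 gained one, 2 moved by more than the spread between libraries, and 9 changed sign. All 9 arose with 1 library left out. Over those fits the log2 difference in the knockdown ran from -0.02 to 0.15 for IGFBP3 (-0.02 without shHSF1 replicate 2, -0.0044 without shNTC replicate 2) and from -0.05 to 0.10 for IRS2 (-0.05 and -0.0019 without the same libraries). Between the lines it ran from -0.97 to 0.06 for IGFBP1 and from -0.08 to 1.16 for IGF2BP2, both turned without PC9-BrM3 replicate 2, from -0.29 to 0.05 for IGF2BP3, turned without PC9-BrM3 replicate 1, and from -0.13 to 0.18 for IRS2, turned without that library (-0.13) and without PC9 parental replicate 2 (-0.03). With all 8 libraries in 1 fit, 3873 genes were called in the knockdown and 3813 between the lines, and 16 and 10 of the other axis genes. Between the lines, 3159 genes were called with no count filter and 2203 by DESeq2. With 1 library left out, the calls between the lines ran from 402 to 9228 over all genes and from 1 to 21 in the axis lists. A lone library was then assumed to vary like the other groups. The cause was not tested.

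The replicate numbers did not pair the libraries: deviations of same-numbered libraries had a correlation of 0.0521 in the knockdown and -0.0279 between the lines over 11092 genes. With the replicate block, 8015 genes were called in the knockdown and 1328 between the lines, 4 members in the knockdown, and 32 and 4 of the axis genes; it changed no call of the 45 genes named in the text and tested in the knockdown or of the 36 tested between the lines, and in the lists it added DNMT3A to the calls of the knockdown. With 2 libraries a group, precision rests on spread shared across genes, and IGF2, CDKN1C and C11orf21 are limited by depth.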
